A study of Mus musculus with 15 samples.

Results

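The nuclear-encoded genes of oxidative phosphorylation were followed across 5 groups of a mouse blood cell line, HoxB, that carried either of 2 leukaemia alleles or both. The genes were chosen by name, as entries for subunits of complexes I to V (names beginning Nduf with a subunit letter and number, Sdha to Sdhd, Uqcr, Cox4 to Cox8 and Atp5), without pseudogene names marked -ps, and with at least 10 counts in at least 3 of the 15 libraries. Of the 52327 gene entries, 92 matched the name patterns, 9 of these were marked -ps, 4 others missed the count minimum, and 79 were kept. They comprised 38 genes of complex I, 4 of complex II, 8 of complex III, 12 of complex IV and 17 of complex V. Just outside the count minimum lay Cox6c2, with 0 to 6 counts, and Cox7b2, Cox8b and Cox8c had 0 counts in all libraries. Just inside lay Cox7a1, with 5 to 81 counts, and Cox6a2, with 7 to 229. Both would also have passed on the libraries outside the groups where they were highest.

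The study asked whether the order in which the alleles are acquired matters. EMPTY cells carried control vectors. RUNX1-ETO_ONLY cells carried RUNX1-ETO, the fusion of the transcription factor RUNX1 with the corepressor-binding protein ETO. CSF3R_ONLY cells carried CSF3R-T618I, an activated form of the receptor for granulocyte colony-stimulating factor. Both alleles were present in RUNX1-ETO_FIRST and CSF3R_FIRST cells, which differed in which one was introduced first. Each group had 3 libraries, and nothing in the labels says that these came from separate transductions or cultures, so the p-values measure the spread between these libraries, which may be technical. The labels name 1 line for all groups.

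Oxidative phosphorylation couples electron flow along the inner mitochondrial membrane to ATP synthesis. Complex I (NADH dehydrogenase) and complex II (succinate dehydrogenase) pass electrons to ubiquinone, complex III passes them on to cytochrome c, complex IV (cytochrome c oxidase) reduces oxygen, and complex V (ATP synthase) uses the resulting proton gradient. Most subunits are encoded in the nucleus and imported, while a few core subunits are encoded in mitochondrial DNA. Several subunits of complex IV exist as paralogs, a ubiquitous form and a form restricted to muscle or testis. Acute myeloid leukaemia cells are known to rely on respiration in many cases.

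Total counts per library were 17007437 to 18178292. All 79 genes passed the expression filter of edgeR and were tested among 13123 genes. Markers fitted the blood label: Mpo, the myeloperoxidase of granulocyte precursors, had group means of 12400 to 45000 CPM (counts scaled to a common library size with TMM factors), and Cd3e, Col1a2, Col3a1 and Dcn, markers of T cells and stroma, had 0 counts. Another stromal marker, Pdgfrb, had group means of 26.3 CPM in EMPTY, 30.7 in CSF3R_ONLY and 69.0 to 89.8 in the groups with the fusion. The summed level of 6 mast cell markers was 1160 to 1630 CPM in EMPTY and 2320 to 2400 in CSF3R_ONLY. Where the fusion was present it was 9980 to 11000 (RUNX1-ETO_ONLY), 11900 to 15000 (RUNX1-ETO_FIRST) and 21300 to 26000 (CSF3R_FIRST). The list did not move as one: Kit was at 331 CPM in EMPTY and 86.1 to 219 in the other groups, and Fcer1a was at 0 in all EMPTY libraries. The 6 erythroid and megakaryocyte markers summed to 80.4 to 81.3 CPM in EMPTY and to 167 to 306 elsewhere, most of it Itga2b (means of 75.9 in EMPTY and 163 to 279 elsewhere). The 8 progenitor and neutrophil markers summed to 49900 to 57900 CPM in EMPTY and to 17200 to 19400 in RUNX1-ETO_FIRST. In bulk RNA, a different number of cells of one type and a different amount of RNA per cell cannot be told apart. The part of these shifts in cell type markers in the results below was not tested.

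With all libraries, the group means of most respiratory chain genes lay close together over the 5 groups. The highest group mean was a median 1.26 times the lowest, against 1.64 over all genes tested. It was under 1.5 times the lowest for 69 genes and under 2 times for 75. The 4 that differed by 2-fold or more were Cox6a2 (21.1-fold), Cox7a1 (10.7-fold), Cox6b2 (4.64-fold) and Ndufb3 (2.11-fold). In the 7 comparisons between pairs of groups, 59 genes passed the test in none and 20 (25.3%) in at least 1, against 73.9% of all genes tested. The median ratio of highest to lowest group mean was 1.29 in complex I, 1.23 in complexes II and III, 1.31 in complex IV and 1.19 in complex V. The wide ratios in complex IV were those of the paralogs restricted to muscle or testis.

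Per kilobase of transcript, the most abundant were Atp5b, the catalytic beta subunit of ATP synthase, at 592 CPM per kilobase, and Cox6a1, a small structural subunit of cytochrome c oxidase, at 589. Cox8a followed at 564. The lowest were Ndufb2 at 0.925, Cox7a1 at 3.30, Cox6a2 at 4.16 and Cox6b2 at 5.69. The median was 55.1 over complex I, 64.1 over complex II, 148 over complex III, 128 over complex IV and 131 over complex V. Ndufb2, a small membrane arm subunit of complex I, overlaps Braf on the other strand and the sources used here do not say whether the counting used strand. Exons of 4 chain genes overlap a gene on the same strand: Ndufb2 (Gm42420), Ndufb8 (Gm20538), Ndufb9 (Gm49356) and Atp5g2 (Mir688). These overlapping genes had 0 counts in all libraries. The part of the overlaps in the levels of the 4 was not tested.

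**Figure D1:**
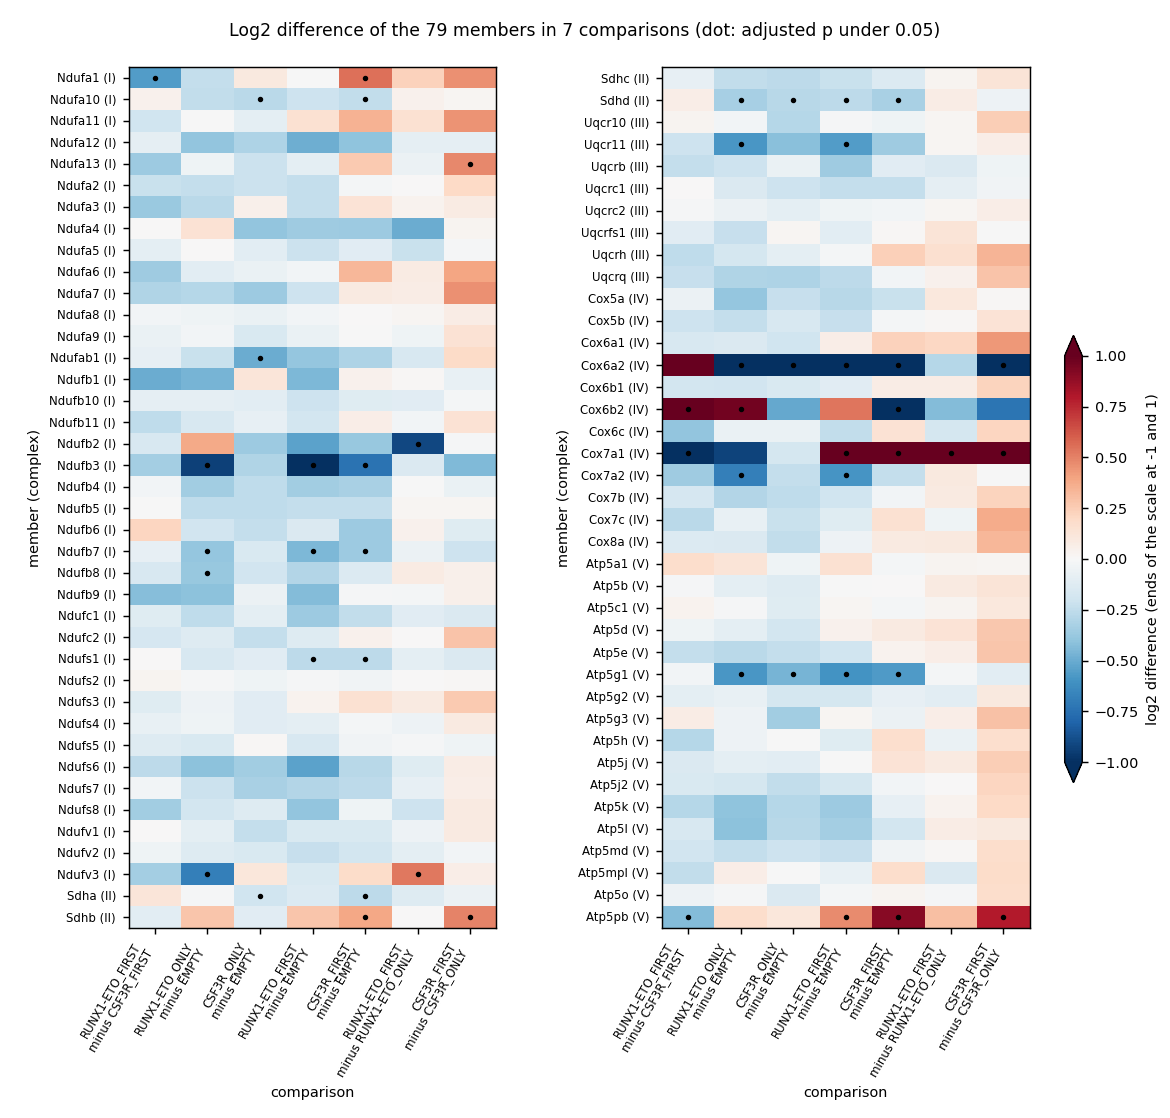
Log2 difference between group means (colour, scale ends at -1 and 1) of the 79 genes (vertical axis, complex in brackets) in 7 comparisons (horizontal axis), with a dot where the edgeR adjusted p was under 0.05. Most cells are pale, and the deepest colours are those of Cox6a2, Cox6b2 and Cox7a1 in complex IV.

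The summed level of the 79 genes was 8000, 7674 and 11580 CPM in EMPTY replicates 1 to 3. It was 7907, 7683 and 9264 CPM in RUNX1-ETO_ONLY, and 8112, 8103 and 8113 CPM in CSF3R_ONLY. It was 9176, 8159 and 8131 CPM in RUNX1-ETO_FIRST and 8242, 8883 and 9940 CPM in CSF3R_FIRST. EMPTY replicate 3 was the highest of all libraries, the CSF3R_ONLY libraries were nearly equal, and the ranges of all 5 groups overlapped except where CSF3R_ONLY fell below RUNX1-ETO_FIRST and CSF3R_FIRST.

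In 4 libraries the genes stood above their group: by a median log2 difference of 0.485 in EMPTY replicate 3, 0.199 in RUNX1-ETO_ONLY replicate 3, 0.186 in CSF3R_FIRST replicate 3 and 0.129 in RUNX1-ETO_FIRST replicate 1. In the same 4 libraries all tested genes with a median transcript under 1000 bases stood above their group, by 0.382, 0.171, 0.147 and 0.118. Across 13010 genes, which are not independent replicates, the deviation of a library from its group correlated with log transcript length at -0.542, -0.380, -0.325 and -0.303 in them. The chain genes have short transcripts, with a median of 732 bases (321.5 to 2900, and 54 under 1000 bases) against 2522 over all tested genes. Over the 15 libraries, the genes whose log2 CPM was most like the mean standardised profile of the 79 included Rps19 (r = 0.980), Rps16 (0.975) and Rps3 (0.972), which encode ribosomal proteins, with median transcripts of 774, 1109 and 952 bases. The correlations are descriptions over libraries that share these deviations. Results that rest on these 4 libraries are therefore given with and without them. Each of the 4 groups concerned then has 1 library fewer. The 4 were picked by their deviation in these same data. Leaving them out raised the share of all genes called, between the orders from 18.3% to 33.7%.

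**Figure D2:**
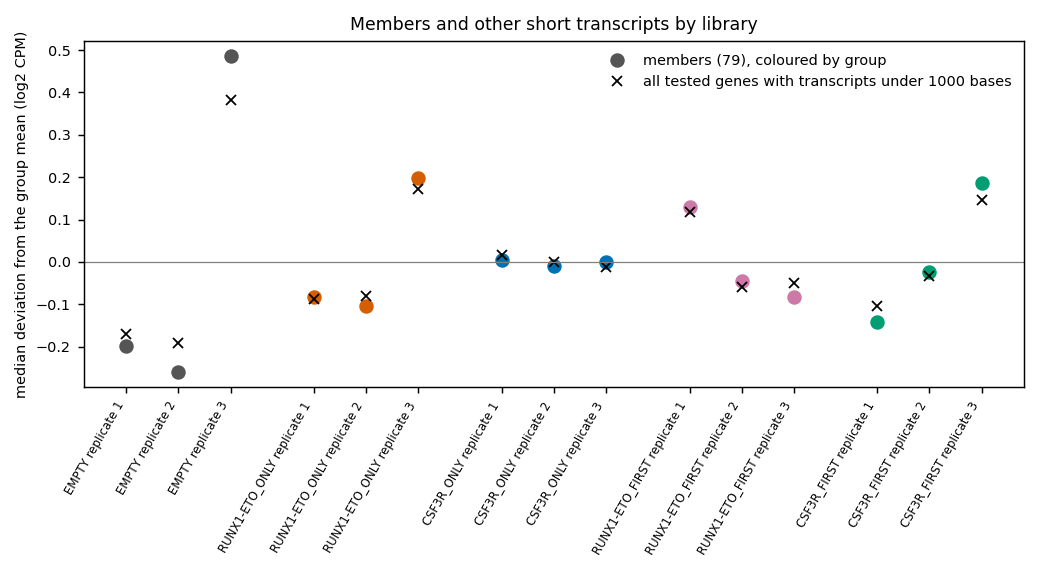
Median deviation of the 79 genes from their group mean in each library (circles, log2 CPM, coloured by group) beside that of all tested genes with transcripts under 1000 bases (crosses). The circle and cross rise together in EMPTY replicate 3 (0.485 and 0.382), and both lie near 0 in the 3 CSF3R_ONLY libraries.

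Between the 2 orders of acquisition, few chain genes differed with all libraries. More did without the 4 libraries, as did more of all genes tested. In RUNX1-ETO_FIRST compared with CSF3R_FIRST, 1 gene was higher (Cox6b2) and 3 were lower (Cox7a1, Ndufa1 and Atp5pb) by edgeR at an adjusted p under 0.05, that is 4 of 79 against 18.3% of all genes tested (7.22% higher and 11.1% lower). The median log2 difference of the 79 was -0.13, and that of all genes was 0.00. The groups did not overlap for 15 of the 79, against 36.2% of all genes. Without the 4 libraries, 29 of the 79 were called (3 higher and 26 lower), against 33.7% of all genes, with a median of -0.11. The number called was then near the share of all genes.

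Against EMPTY, each of the 4 groups with an allele had more chain genes lower than higher. In RUNX1-ETO_ONLY, 1 was higher and 9 were lower, against 39.0% of all genes called (20.8% higher and 18.2% lower). In CSF3R_ONLY, 0 were higher and 6 lower, against 33.1% (19.9% and 13.2%). In RUNX1-ETO_FIRST, 2 were higher and 8 lower, against 44.0% (23.7% and 20.2%). In CSF3R_FIRST, 4 were higher and 9 lower, against 53.5% (26.8% and 26.7%). The median log2 differences of the 79 were -0.18, -0.18, -0.20 and -0.03 in the same order, and those of all genes were 0.01, 0.00, -0.02 and -0.05. All 4 comparisons share the EMPTY libraries.

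The direction of these medians rested on EMPTY replicate 3. Without it the medians were 0.06, 0.05, 0.07 and 0.19, with 5 higher and 6 lower in RUNX1-ETO_ONLY (39.4% of all genes called), 5 and 2 in CSF3R_ONLY (33.6%), 8 and 4 in RUNX1-ETO_FIRST (45.9%) and 30 and 6 in CSF3R_FIRST (57.7%). Without all 4 libraries the medians were -0.02, 0.06, -0.01 and 0.10, with 6 higher and 17 lower (48.3%), 17 and 7 (46.7%), 14 and 14 (53.6%), and 32 and 10 (63.6%). A common direction of the chain genes against EMPTY was therefore not found that held with and without this library. Cox6a2, Sdhd and Atp5g1 were lower in all 4 groups, both with all libraries and without the 4. No gene was higher in all 4 with all libraries, and Atp5pb and Ndufa11 were so without the 4. Over all comparisons the chain genes had 58 calls. Of these, 27 were kept whichever single library was left out, and the libraries without which each of the other 31 was lost are named with its gene.

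**Figure D3:**
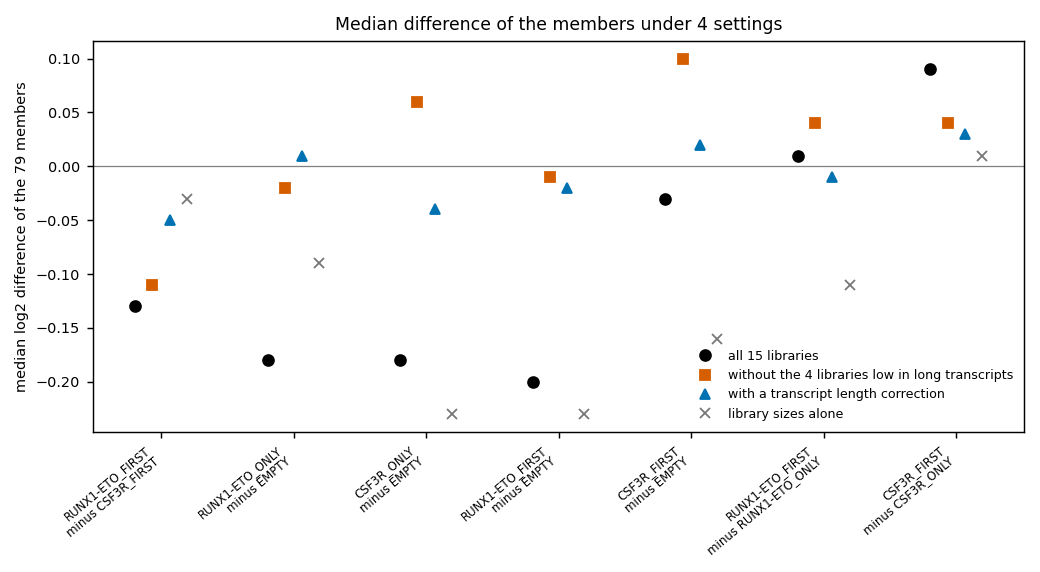
Median log2 difference of the 79 genes (vertical axis) in 7 comparisons (horizontal axis) under 4 settings: all 15 libraries, without the 4 libraries low in long transcripts, with a correction for transcript length, and with library sizes alone. Against EMPTY, the median in CSF3R_ONLY is -0.18 with all libraries and 0.06 without the 4.

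When the receptor allele was added to cells with the fusion (RUNX1-ETO_FIRST against RUNX1-ETO_ONLY), 2 chain genes were higher (Cox7a1 and Ndufv3) and 1 was lower (Ndufb2), against 26.3% of all genes (16.0% higher and 10.3% lower), with a median of 0.01. When the fusion was added to cells with the receptor allele (CSF3R_FIRST against CSF3R_ONLY), 4 were higher (Cox7a1, Atp5pb, Sdhb and Ndufa13) and 1 was lower (Cox6a2), against 44.9% of all genes (22.3% higher and 22.6% lower), with a median of 0.09. Without the 4 libraries these counts were 7 and 2 (39.0% of all genes), and 24 and 7 (57.7%), with medians of 0.04 and 0.04. The groups did not overlap for 28 of the 79 genes in the second comparison, against 61.5% of all genes, and for 7 in the first, against 42.1%.

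The additivity test asks whether a group with both alleles differs from the sum of the single effects, computed on the log2 scale as the double group, less each single group, plus EMPTY. In RUNX1-ETO_FIRST, 2 chain genes lay above the sum (Cox6a2 and Cox7a1) and 0 below, against 15.8% of all genes (6.42% above and 9.42% below). In CSF3R_FIRST, 4 lay above (Cox7a1, Cox6a2, Ndufv3 and Atp5pb) and 1 below (Cox6b2), against 22.9% (10.4% and 12.5%). The medians of the 79 were 0.19 and 0.32. EMPTY replicate 3 enters both sums, and without it the medians were -0.04 and 0.10, so that the first changed sign. Without the 4 libraries the counts were 4 above and 7 below (26.2% of all genes) and 15 and 2 (33.3%), with medians of -0.01 and 0.12.

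Within complex IV, the restricted paralogs Cox6a2, Cox6b2 and Cox7a1 had calls in 5, 3 and 5 of the 7 comparisons, and their ubiquitous partners Cox6a1, Cox6b1 and Cox7a2 in 0, 0 and 2. Cox6a2 and Cox7a1 are the forms of heart and skeletal muscle, Cox6b2 is the form of the testis, and the partners are found in most tissues. The promoters of 5 of them are shown because the calls of the paralogs differed. The bases are those upstream of the transcript start that no annotated exon covers, read from the RefSeq promoter table (GRCm38.p6) on the strand of the gene, 5′ to 3′. Capitals mark a match to the NRF1 motif CGCATGCG. They lie at chr5:115348982-115349129 (Cox6a1, minus strand), chr7:30626152-30626364 (Cox6b1, minus), chr7:4753095-4753225 (Cox6b2, minus), chr9:79759879-79760103 (Cox7a2, minus) and chr7:30183921-30184143 (Cox7a1, plus).
Cox6a1: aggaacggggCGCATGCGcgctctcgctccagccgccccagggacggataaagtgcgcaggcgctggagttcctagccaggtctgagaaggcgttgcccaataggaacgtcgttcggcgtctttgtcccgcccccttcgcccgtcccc
Cox6b1: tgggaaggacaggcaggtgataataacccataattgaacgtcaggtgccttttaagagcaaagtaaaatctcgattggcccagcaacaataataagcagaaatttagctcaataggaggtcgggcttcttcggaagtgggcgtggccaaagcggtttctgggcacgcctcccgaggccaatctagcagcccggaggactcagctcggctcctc
Cox6b2: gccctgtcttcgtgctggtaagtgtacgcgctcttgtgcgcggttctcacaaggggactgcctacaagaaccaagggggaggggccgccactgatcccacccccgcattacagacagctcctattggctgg
Cox7a2: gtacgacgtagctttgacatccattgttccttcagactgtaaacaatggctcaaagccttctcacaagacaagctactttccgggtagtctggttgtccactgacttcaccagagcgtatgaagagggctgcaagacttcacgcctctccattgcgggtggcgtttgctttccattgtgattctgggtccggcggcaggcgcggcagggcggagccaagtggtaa
Cox7a1: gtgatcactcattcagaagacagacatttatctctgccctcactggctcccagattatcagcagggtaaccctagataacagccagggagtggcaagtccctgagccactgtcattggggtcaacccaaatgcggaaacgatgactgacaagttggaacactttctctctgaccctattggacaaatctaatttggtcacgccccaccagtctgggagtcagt

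Cox6a2 (chr7:128205435-128206387, minus strand, mm10) was the gene with the widest range. It stood at 8.31, 8.33 and 13.7 CPM in EMPTY, 1.48, 1.13 and 1.41 in RUNX1-ETO_ONLY, and 1.34, 0.694 and 1.33 in CSF3R_ONLY. It stood at 1.07, 1.54 and 0.676 CPM in RUNX1-ETO_FIRST and 0.421, 0.472 and 0.545 in CSF3R_FIRST. Every EMPTY library was above every other library, and the CSF3R_FIRST libraries were the lowest. Against EMPTY (10.1 ± 3.12 CPM, SD, n = 3), the log2 difference was -2.91 in RUNX1-ETO_ONLY (SE 0.275, adjusted p = 4.03e-07), -3.17 in CSF3R_ONLY (SE 0.287, 3.29e-07), -3.20 in RUNX1-ETO_FIRST (SE 0.286, 1.62e-07) and -4.38 in CSF3R_FIRST (SE 0.329, 1.59e-08). Without the 4 libraries these differences were -2.68, -2.91, -2.92 and -4.19.

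Both double groups had more Cox6a2 than the sum of the single effects gives, by a log2 difference of 2.88 in RUNX1-ETO_FIRST (SE 0.453, adjusted p = 0.000354) and 1.70 in CSF3R_FIRST (SE 0.533, 0.0313). The second was 1.39 and no longer past the threshold without the 4 libraries, and it was also lost without any 1 of the CSF3R_FIRST libraries, RUNX1-ETO_ONLY replicate 2 or CSF3R_ONLY replicate 2 (adjusted p = 0.0532 to 0.089). CSF3R_FIRST was lower than CSF3R_ONLY (log2 difference -1.21, SE 0.417, adjusted p = 0.0271), a call lost without any 1 of the CSF3R_FIRST libraries or CSF3R_ONLY replicate 1 or 3 (adjusted p = 0.0555 to 0.0896). The 2 orders did not overlap, but their log2 difference of 1.18 missed the threshold (adjusted p = 0.0618). It passed under 6 of 14 alternatives (1.16 to 1.41): library sizes alone, no filter, without RUNX1-ETO_FIRST replicate 3, without the 4 libraries, with the length correction and with DESeq2. CSF3R_FIRST had only 7 to 9 counts per library, RUNX1-ETO_ONLY 22 to 29 and CSF3R_ONLY 12 to 23. The sum of the single effects therefore lies near the floor for both double groups. The part of this floor in the values above the sum was not tested. Itgad, an integrin gene on the other strand, shares exon sequence with Cox6a2 and had 0 to 10 counts.

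Cox6a1, the ubiquitous partner (337 ± 119 CPM in EMPTY, 305 ± 42.2 in RUNX1-ETO_ONLY, 293 ± 12.9 in CSF3R_ONLY, 353 ± 38.0 in RUNX1-ETO_FIRST and 395 ± 42.0 in CSF3R_FIRST, SD, n = 3), passed the test in none of the 7 comparisons. Its difference nearest to the threshold was CSF3R_FIRST against CSF3R_ONLY (log2 0.43, adjusted p = 0.0616), where the groups did not overlap. Cox6a1 was, without the 4 libraries, lower in RUNX1-ETO_FIRST than in CSF3R_FIRST (log2 -0.19, adjusted p = 0.00642).

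Cox7a1 (chr7:30184144-30186078, plus strand) was highest where both alleles were present. It stood at 0.661, 0.389 and 1.14 CPM in EMPTY, 0.357, 0.513 and 0.262 in RUNX1-ETO_ONLY, and 0.816, 0.521 and 0.576 in CSF3R_ONLY. It stood at 1.85, 1.37 and 1.18 CPM in RUNX1-ETO_FIRST and 3.91, 4.78 and 3.39 in CSF3R_FIRST. Every CSF3R_FIRST library was above every RUNX1-ETO_FIRST library, and these were above all others. It was lower in RUNX1-ETO_FIRST than in CSF3R_FIRST (1.47 ± 0.343 against 4.03 ± 0.701 CPM, SD, n = 3, log2 difference -1.45, SE 0.285, adjusted p = 0.00208). Against the single alleles it rose by 1.94 on the log2 scale in RUNX1-ETO_FIRST (adjusted p = 0.00119) and by 2.65 in CSF3R_FIRST (5.59e-06), and it was higher than EMPTY in both double groups (1.02, 0.0261, and 2.47, 7.08e-06). The call in RUNX1-ETO_FIRST against EMPTY was lost without RUNX1-ETO_FIRST replicate 1 or EMPTY replicate 1 or 2 (adjusted p = 0.0734 to 0.111). At the threshold neither single allele differed from EMPTY (log2 -0.92, adjusted p = 0.0996, and -0.18, 0.773).

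Both double groups exceeded the sum of the single effects for Cox7a1, by 2.12 on the log2 scale in RUNX1-ETO_FIRST (SE 0.552, adjusted p = 0.0152) and 3.57 in CSF3R_FIRST (SE 0.536, 0.000181). The first was 1.69 without EMPTY replicate 3 and 1.28 without the 4 libraries, and past the threshold in neither. Libraries outside the double groups had 5 to 19 counts. The ubiquitous Cox7a2 did not follow it. Cox7a2 was lower than EMPTY (79.8 ± 32.9 CPM, SD, n = 3) in RUNX1-ETO_ONLY (49.6 ± 8.72 CPM, log2 -0.68, adjusted p = 0.0152) and RUNX1-ETO_FIRST (53.0 ± 3.91 CPM, log2 -0.59, 0.0292). EMPTY replicate 3, at 118 CPM, lay far above EMPTY replicates 1 and 2, at 62.2 and 59.5, and without it the differences were -0.31 and -0.22, the second not past the threshold. The first was lost without RUNX1-ETO_ONLY replicate 1 or 2 (adjusted p = 0.0613 to 0.0658), and the second also without RUNX1-ETO_FIRST replicate 2 or 3. Between the orders Cox7a2 did not pass (log2 -0.35, adjusted p = 0.266), but it did without the 4 libraries (-0.33, 0.000191), with limma-voom and with the compared groups alone.

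Cox6b2 (chr7:4751792-4753094, minus strand) was highest in RUNX1-ETO_ONLY and lowest in CSF3R_FIRST. It stood at 1.38, 1.44 and 3.96 CPM in EMPTY, 4.18, 4.26 and 4.66 in RUNX1-ETO_ONLY, and 1.28, 1.62 and 1.79 in CSF3R_ONLY. It stood at 3.59, 2.86 and 3.27 CPM in RUNX1-ETO_FIRST and 0.842, 0.767 and 1.21 in CSF3R_FIRST. RUNX1-ETO_ONLY was above all other libraries and CSF3R_FIRST below all others. It was higher in RUNX1-ETO_FIRST than in CSF3R_FIRST (3.24 ± 0.366 against 0.940 ± 0.238 CPM, SD, n = 3, log2 difference 1.78, SE 0.356, adjusted p = 0.00237), and 1.89 on the log2 scale without the 4 libraries.

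Against EMPTY, Cox6b2 was higher in RUNX1-ETO_ONLY (log2 0.96, SE 0.303, adjusted p = 0.0198) and lower in CSF3R_FIRST (log2 -1.25, SE 0.371, 0.0102). EMPTY replicate 3 again decided the sizes: without it they were 1.61 and -0.58, and the second was no longer past the threshold, nor was it without the 4 libraries (-0.80). The first was lost without RUNX1-ETO_ONLY replicate 3 or EMPTY replicate 1 or 2 (adjusted p = 0.0503 to 0.0876). CSF3R_FIRST lay below the sum of the single effects (log2 -1.69, SE 0.493, adjusted p = 0.0211), a call lost without CSF3R_FIRST replicate 2 or CSF3R_ONLY replicate 3. RUNX1-ETO_FIRST did not differ from its sum at the threshold (log2 0.08, adjusted p = 0.934). The ubiquitous Cox6b1 had group means of 180 to 216 CPM and passed in none of the 7 comparisons. Cox8a, whose restricted paralogs Cox8b and Cox8c had 0 counts, also passed in none.

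**Figure D4:**
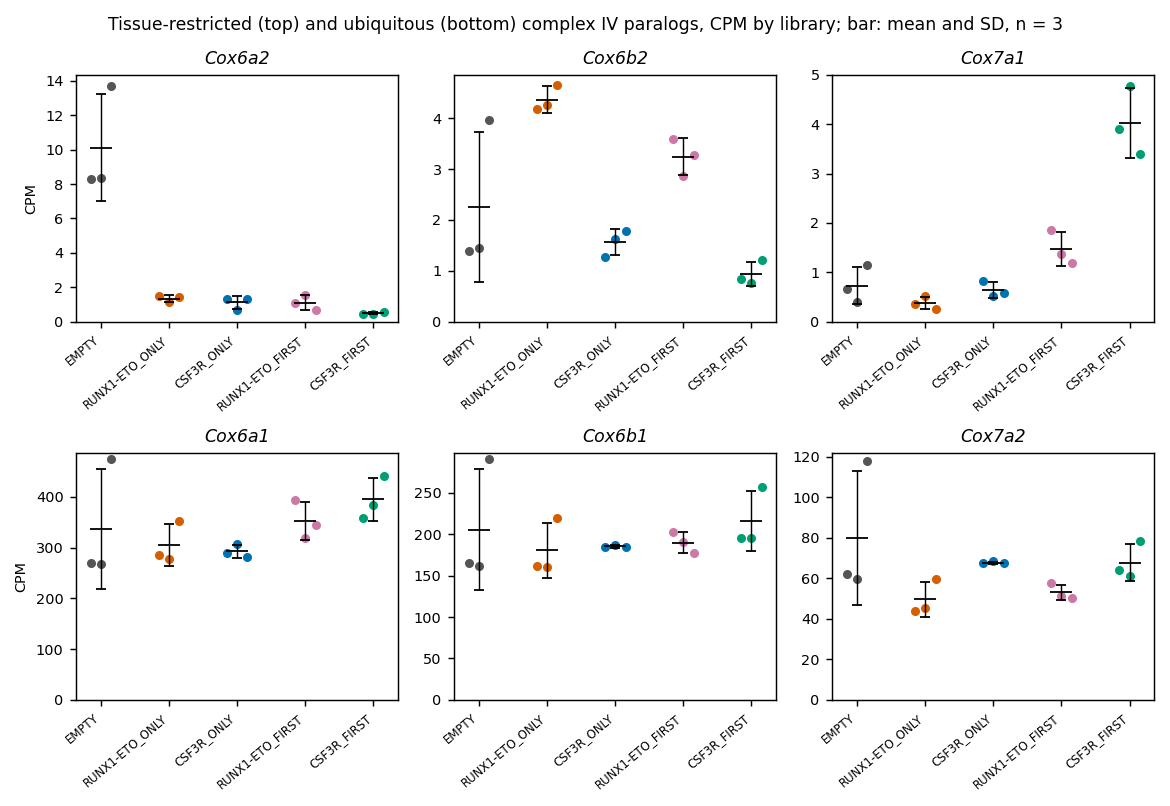
CPM by library of the restricted complex IV paralogs Cox6a2, Cox6b2 and Cox7a1 (top) and of the ubiquitous partners Cox6a1, Cox6b1 and Cox7a2 (bottom) in the 5 groups, on linear axes from 0; bars are the mean and SD of 3 libraries. Cox6a2 is above 8 CPM only in EMPTY, and Cox7a1 is above 3 CPM only in CSF3R_FIRST.

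In complex I, 1 of 38 genes differed between the orders with all libraries. Ndufa1, a small accessory subunit of the membrane arm, was lower in RUNX1-ETO_FIRST (18.9, 17.6 and 15 CPM) than in CSF3R_FIRST (21.2, 25.3 and 29.3 CPM), with a log2 difference of -0.56 (SE 0.184, adjusted p = 0.0477). The groups did not overlap, and CSF3R_FIRST also exceeded EMPTY (log2 0.55, adjusted p = 0.0195). With library sizes alone as the scaling the order difference was -0.46 and missed the threshold, and it was also lost without any 1 of the RUNX1-ETO_FIRST libraries or CSF3R_FIRST replicate 2 or 3 (adjusted p = 0.0589 to 0.159). The call against EMPTY was lost without CSF3R_FIRST replicate 3 or EMPTY replicate 1 or 2, and its difference was 0.87 without EMPTY replicate 3. At the other end of complex I stood Ndufb6, with a log2 difference of 0.22 (adjusted p = 0.453), which passed with the length correction (0.33).

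Ndufb3, another accessory subunit of the membrane arm, was lower in each group that carried the fusion. It stood at 34.2, 29.6 and 49.4 CPM in EMPTY and 32.4, 30.6 and 28.8 in CSF3R_ONLY. It stood at 17.5, 17.4 and 24.3 CPM in RUNX1-ETO_ONLY, 18.6, 18.7 and 16.3 in RUNX1-ETO_FIRST and 18.8, 22.2 and 26.8 in CSF3R_FIRST. Every library with the fusion was below every library without it. Against EMPTY the log2 differences were -0.93 in RUNX1-ETO_ONLY (SE 0.180, adjusted p = 0.000627), -1.07 in RUNX1-ETO_FIRST (SE 0.181, 0.000159) and -0.74 in CSF3R_FIRST (SE 0.179, 0.00254), and they were -0.89, -0.88 and -0.63 without the 4 libraries. CSF3R_ONLY against EMPTY did not pass (log2 -0.30, adjusted p = 0.214).

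Ndufv3, an accessory subunit of the NADH-oxidising arm, was lowest in RUNX1-ETO_ONLY. It stood at 70.4, 72.6 and 91.9 CPM there, against 107, 104 and 166 in EMPTY and 124, 106 and 108 in RUNX1-ETO_FIRST. It stood at 140, 133 and 135 CPM in CSF3R_ONLY and 130, 141 and 156 in CSF3R_FIRST. The RUNX1-ETO_ONLY libraries were below all others. RUNX1-ETO_ONLY was lower than EMPTY (log2 -0.68, SE 0.152, adjusted p = 0.00214), RUNX1-ETO_FIRST was higher than RUNX1-ETO_ONLY (0.53, SE 0.152, 0.0177), and CSF3R_FIRST lay above the sum of the single effects (0.75, SE 0.214, 0.0192). The first was -0.45 without EMPTY replicate 3, and the third was 0.46 with the length correction. The second was lost without RUNX1-ETO_FIRST replicate 1 or RUNX1-ETO_ONLY replicate 1 or 2, and the third without either of the latter (adjusted p = 0.0525 to 0.0805).

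Other complex I calls were smaller. Ndufs1, the largest iron-sulfur subunit, was lower than EMPTY (81.4 ± 6.65 CPM) in RUNX1-ETO_FIRST (68.0 ± 2.75 CPM, log2 -0.26, adjusted p = 0.0121) and CSF3R_FIRST (68.0 ± 2.28 CPM, -0.26, 0.00943). Ndufb7 was lower than EMPTY in RUNX1-ETO_ONLY (-0.39, adjusted p = 0.0497), RUNX1-ETO_FIRST (-0.45, 0.0226) and CSF3R_FIRST (-0.37, 0.0481). Ndufb8 was lower in RUNX1-ETO_ONLY (-0.38, adjusted p = 0.0414). Ndufa10 was lower in CSF3R_ONLY (-0.27, adjusted p = 0.0409) and CSF3R_FIRST (-0.25, 0.0404). Ndufab1, the mitochondrial acyl carrier protein, was lower in CSF3R_ONLY (-0.50, adjusted p = 0.0478). Ndufa13 was higher in CSF3R_FIRST than in CSF3R_ONLY (0.48, adjusted p = 0.0288). Both calls of Ndufs1 were kept whichever single library was left out.

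The calls of Ndufb7, Ndufb8, Ndufa10 and Ndufab1 all missed the threshold without EMPTY replicate 3. Ndufb7 was then at -0.17, -0.24 and -0.13, Ndufb8 at -0.19, Ndufa10 at -0.16 and -0.11, and Ndufab1 at -0.20. Those of Ndufb7 and Ndufb8 in RUNX1-ETO_ONLY were also lost without RUNX1-ETO_ONLY replicate 1 or 2, and that of Ndufb7 in RUNX1-ETO_FIRST without its replicate 2 or 3. Those of Ndufb7 and Ndufa10 in CSF3R_FIRST, and of Ndufa10 and Ndufab1 in CSF3R_ONLY, were lost without any 1 library of that group, and that of Ndufa10 in CSF3R_ONLY without EMPTY replicate 1 too. That of Ndufa13 was lost without replicate 2 or 3 of either group.

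Ndufb2, at 21 to 68 counts per library, was lower in RUNX1-ETO_FIRST than in RUNX1-ETO_ONLY (1.46, 1.26 and 2.37 against 3.47, 2.93 and 3.19 CPM, log2 -0.91, adjusted p = 0.0131), a call lost without RUNX1-ETO_FIRST replicate 1 or 2. Braf, which overlaps it on the other strand, had means of 31.8 and 37.7 CPM in these groups (log2 -0.25, adjusted p = 0.227). Ndufa4, listed with complex I by its name and now usually counted as a subunit of complex IV, passed in none of the 7 comparisons. Its means were 114 ± 39.8 CPM in EMPTY, 125 ± 16.0 in RUNX1-ETO_ONLY, 86.7 ± 3.27 in CSF3R_ONLY, 89.0 ± 11 in RUNX1-ETO_FIRST and 88.5 ± 14.0 in CSF3R_FIRST.

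The 4 subunits of complex II moved separately. Sdha, the flavoprotein that oxidises succinate, stood at 191, 186 and 191 CPM in EMPTY, 162, 166 and 168 in CSF3R_ONLY and 158, 156 and 161 in CSF3R_FIRST. It was lower than EMPTY in CSF3R_ONLY (log2 -0.20, SE 0.0622, adjusted p = 0.0231) and CSF3R_FIRST (-0.26, SE 0.0623, 0.00237), with no overlap. EMPTY replicate 3 did not stand apart for Sdha, and the call in CSF3R_ONLY was lost without any 1 of its libraries or EMPTY replicate 1 (adjusted p = 0.0552 to 0.0877). Sdhb, the iron-sulfur subunit, stood at 65.1, 56.2 and 84.5 CPM in EMPTY, 63.3, 62.7 and 64.7 in CSF3R_ONLY and 80.9, 84.6 and 104 in CSF3R_FIRST. CSF3R_FIRST was higher than CSF3R_ONLY (log2 0.50, SE 0.146, adjusted p = 0.0113) with no overlap, and higher than EMPTY (0.39, SE 0.146, 0.0351) with overlap, the second lost without CSF3R_FIRST replicate 3 or EMPTY replicate 1 or 2.

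Sdhd, which with Sdhc anchors the enzyme in the membrane, stood at 94.1, 90.2 and 112 CPM in EMPTY and at 72.5 to 89.0 CPM in the other 12 libraries. It was lower in all 4 groups, by log2 differences of -0.34 (adjusted p = 0.0117), -0.28 (0.0365), -0.26 (0.0395) and -0.33 (0.00943) in RUNX1-ETO_ONLY, CSF3R_ONLY, RUNX1-ETO_FIRST and CSF3R_FIRST. Without EMPTY replicate 3 it was -0.21 in CSF3R_ONLY and -0.18 in RUNX1-ETO_FIRST and missed the threshold in both, and without the 4 libraries it passed in all 4 groups. The calls were also lost without RUNX1-ETO_ONLY replicate 2, any 1 CSF3R_ONLY library, RUNX1-ETO_FIRST replicate 2 or 3, and CSF3R_FIRST replicate 2, each in its own comparison. Sdhc, with means of 105 to 127 CPM, passed in none of the 7 comparisons. No complex II gene differed between the orders at the threshold, from Sdhb (log2 -0.11, adjusted p = 0.672) to Sdha (0.12, 0.211), although Sdha passed with library sizes alone (0.22) and with limma-voom (0.16).

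In complex III, 1 of 8 genes passed in any comparison with all libraries. Uqcr11, a small accessory subunit, stood at 83.1, 76.0 and 135 CPM in EMPTY, 55.6, 62.3 and 79.1 in RUNX1-ETO_ONLY and 72.4, 66.4 and 60.6 in RUNX1-ETO_FIRST. It was lower than EMPTY in both (log2 -0.58, adjusted p = 0.0209, and -0.56, 0.0218). Both calls rested on EMPTY replicate 3, and without it they were -0.29 and -0.28 and missed the threshold. The first was also lost without RUNX1-ETO_ONLY replicate 1 or 2, and the second without RUNX1-ETO_FIRST replicate 2 or 3. Between the orders, complex III ran from Uqcrh, the hinge protein (log2 -0.26, adjusted p = 0.284), to Uqcr10 (0.03, 0.936). Uqcrh passed without the 4 libraries (-0.31, adjusted p = 0.000608) and with limma-voom.

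In complex V, 2 of 17 genes passed in any comparison with all libraries, and they moved in opposite directions against EMPTY. Atp5pb, the b subunit of the peripheral stalk, stood at 149, 142 and 185 CPM in EMPTY, 175, 167 and 196 in RUNX1-ETO_ONLY, and 179, 170 and 166 in CSF3R_ONLY. It stood at 233, 214 and 214 CPM in RUNX1-ETO_FIRST and 265, 289 and 339 in CSF3R_FIRST. CSF3R_FIRST was above all other libraries, and RUNX1-ETO_FIRST above all libraries of the single alleles and EMPTY. It was lower in RUNX1-ETO_FIRST than in CSF3R_FIRST (220 ± 11 against 298 ± 38.1 CPM, SD, n = 3, log2 -0.43, SE 0.107, adjusted p = 0.00981).

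Against EMPTY, Atp5pb was higher by 0.47 on the log2 scale in RUNX1-ETO_FIRST (SE 0.107, adjusted p = 0.00192) and by 0.91 in CSF3R_FIRST (SE 0.108, 3.09e-06). CSF3R_FIRST was 0.80 above CSF3R_ONLY (adjusted p = 1.6e-05) and 0.62 above the sum of the single effects (SE 0.151, 0.0076). Each of these 5 calls was also past the threshold under every alternative run. Atp5pb (chr3:105942698-105960099, minus strand) overlaps Wdr77 on the other strand. Wdr77 had 14.1 to 23.9 CPM, was higher in CSF3R_FIRST than in CSF3R_ONLY (log2 0.72, adjusted p = 0.000135), and did not differ at the threshold between the orders (-0.06, 0.797) or between either double group and EMPTY.

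Atp5g1, Atp5g2 and Atp5g3 encode the same mature c subunit of the rotor ring with different import sequences. Atp5g1 stood at 165, 162 and 276 CPM in EMPTY, 131, 127 and 145 in RUNX1-ETO_ONLY, and 143, 149 and 145 in CSF3R_ONLY. It stood at 151, 124 and 123 CPM in RUNX1-ETO_FIRST and 126, 126 and 155 in CSF3R_FIRST. All EMPTY libraries were above all others, with EMPTY replicate 3 far above the rest. The log2 differences from EMPTY were -0.59 (adjusted p = 0.01), -0.47 (0.0396), -0.60 (0.00742) and -0.57 (0.00821) in the 4 groups. Without EMPTY replicate 3 they were -0.30, -0.20, -0.33 and -0.27, and the one in CSF3R_ONLY missed the threshold, as it did without any 1 of the CSF3R_ONLY libraries. Atp5g2 and Atp5g3, at 93.4 to 106 and 104 to 134 CPM by group, passed in none of the 7 comparisons, although Atp5g3 passed between the orders with the length correction (0.18). Atp5a1, the alpha subunit, had the highest order difference of complex V (887 ± 15 against 787 ± 7.15 CPM, log2 0.17, adjusted p = 0.0858). It passed under 5 of 14 alternatives (0.14 to 0.27): library sizes alone, without the 4 libraries, the length correction, limma-voom and DESeq2.

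**Figure D5:**
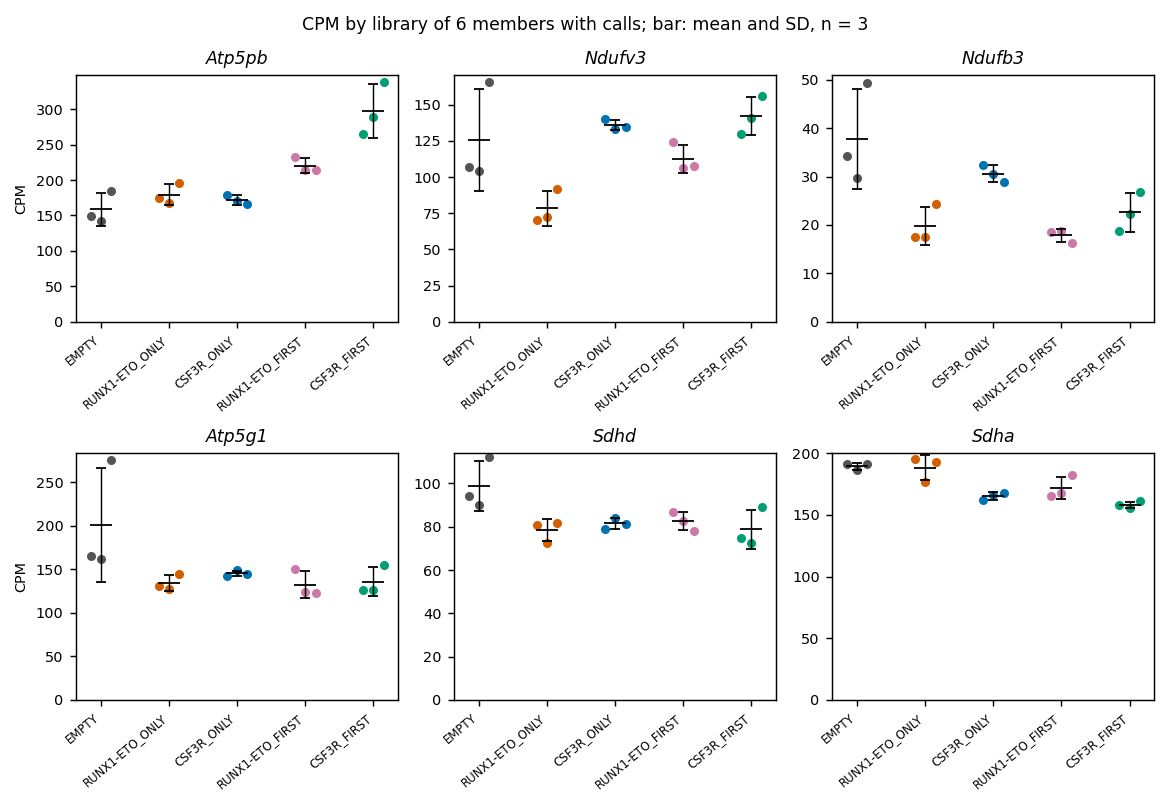
CPM by library of 6 genes with calls, Atp5pb, Ndufv3, Ndufb3, Atp5g1, Sdhd and Sdha, in the 5 groups, on linear axes from 0; bars are the mean and SD of 3 libraries. Atp5pb is highest in CSF3R_FIRST, Ndufb3 is lower in the 3 groups with the fusion, and Atp5g1 and Sdhd are highest in EMPTY.

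Genes that work with the chain were read from the same tests. The 7 tested subunits that the name patterns leave out included Cox7a2l, a supercomplex factor. It was higher than EMPTY in CSF3R_ONLY (log2 0.29) and CSF3R_FIRST (0.46), and lower in RUNX1-ETO_FIRST than in CSF3R_FIRST (-0.26). Cyc1, the cytochrome c1 of complex III, was lower than EMPTY in CSF3R_FIRST (-0.36). That call was lost without EMPTY replicate 3, where 4 of these 7 subunits were higher in CSF3R_FIRST and 0 lower. This was 57.1% of the 7 called, near the 57.7% of all genes called in either direction. Higd1a was higher in CSF3R_FIRST than in EMPTY (0.46), and in RUNX1-ETO_FIRST than in RUNX1-ETO_ONLY (0.68). Cox4i1, a main nuclear subunit of complex IV, passed in none, at 167 to 201 CPM by group.

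The 11 tested transcripts of mitochondrial DNA, 9 of them messenger RNAs of the chain and 2 ribosomal RNAs, were lower than EMPTY or did not pass. Of these, 4 were lower in RUNX1-ETO_ONLY, 7 in CSF3R_ONLY, and 3 in each double group, with median log2 differences of -0.37, -0.82, -0.47 and -0.57. Of all genes, 18.2%, 13.2%, 20.2% and 26.7% were lower. Cytochrome b, mt-Cytb, had means of 4250 ± 1440 CPM in EMPTY and 2340 ± 488 in CSF3R_ONLY (SD, n = 3, log2 -0.86). Without the 4 libraries the counts were 2, 3, 2 and 1, and the medians -0.14, -0.49, -0.18 and -0.45, and without EMPTY replicate 3 alone they were 2, 2, 1 and 0, and -0.08, -0.49, -0.24 and -0.26. Between the orders their median was 0.03.

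Of 78 mitochondrial ribosomal proteins, 17, 22, 27 and 40 were lower than EMPTY in RUNX1-ETO_ONLY, CSF3R_ONLY, RUNX1-ETO_FIRST and CSF3R_FIRST, and 1, 0, 0 and 0 were higher, against 18.2%, 13.2%, 20.2% and 26.7% of all genes lower. The 17 of 78 in RUNX1-ETO_ONLY were near the 18.2% of all genes. The medians were -0.25, -0.23, -0.31 and -0.37, and without the 4 libraries they were -0.19, -0.08, -0.22 and -0.25 with 34, 22, 44 and 47 lower. Without EMPTY replicate 3 alone they were -0.07, -0.09, -0.15 and -0.18, with 8, 11, 18 and 30 lower and 3, 1, 3 and 4 higher. Between the orders 2 were higher and 0 lower. Of 18 assembly factors of complex I, 4, 5, 8 and 9 were lower and 0 higher in the same 4 groups. Of 24 assembly factors of complex IV, 3, 5, 8 and 8 were lower and 1, 0, 0 and 1 higher. Of 17 genes of the tricarboxylic acid cycle, 4, 5, 4 and 8 were lower and 0, 0, 1 and 1 higher. The 4 of 18, 3 of 24 and 4 of 17 lower in RUNX1-ETO_ONLY, and the 4 of 17 in RUNX1-ETO_FIRST, were near or below the shares of all genes. Without EMPTY replicate 3 the numbers lower were 2, 5, 5 and 8 for complex I assembly, 3, 4, 6 and 7 for complex IV assembly and 3, 5, 4 and 8 for the cycle. The numbers lower without the 4 libraries were 2, 5, 8 and 8 for complex I assembly, 7, 5, 8 and 8 for complex IV assembly and 7, 7, 7 and 11 for the cycle. Of 80 cytosolic ribosomal proteins, at most 4 passed in any of the 7 comparisons with all libraries, against 18.3% to 53.5% of all genes. That count depended on the libraries. Without EMPTY replicate 3, 38 were higher and 1 lower in CSF3R_FIRST than in EMPTY, that is 48.8% of the 80 against 57.7% of all genes. In RUNX1-ETO_FIRST 9 were then higher than in EMPTY, that is 11.2% against 45.9% of all genes. Without the 4 libraries 41 were lower in RUNX1-ETO_FIRST than in CSF3R_FIRST, against 33.7% of all genes called in either direction. The difference between these lists and the chain genes was not tested.

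Of 20 regulators of mitochondrial genes, 6 were higher and 3 lower in RUNX1-ETO_ONLY than in EMPTY, while 0 were higher and 5 lower in CSF3R_ONLY, and 1 was higher and 6 lower in each double group. Of all genes, 20.8%, 19.9%, 23.7% and 26.8% were higher and 18.2%, 13.2%, 20.2% and 26.7% lower in these 4 comparisons. Nrf1, which activates many respiratory genes, was higher in RUNX1-ETO_ONLY than in EMPTY (log2 0.34) and lower in RUNX1-ETO_FIRST than in RUNX1-ETO_ONLY (-0.24). Ppargc1b, a coactivator of mitochondrial genes, was higher in RUNX1-ETO_FIRST than in CSF3R_FIRST (10.4 ± 0.428 against 6.45 ± 0.690 CPM, SD, n = 3, log2 0.69). It was lower than EMPTY in CSF3R_ONLY (-0.72) and CSF3R_FIRST (-0.49). Tfb2m, a mitochondrial transcription factor, was lower than EMPTY in all 4 groups, by -0.47, -0.32, -0.56 and -0.68. Myc was lower than EMPTY in CSF3R_ONLY (-0.39), RUNX1-ETO_FIRST (-0.30) and CSF3R_FIRST (-0.44). All of these named differences passed edgeR's test at an adjusted p under 0.05 with all libraries. Without EMPTY replicate 3, the numbers higher and lower of the 20 were 6 and 3, 0 and 6, 1 and 6, and 0 and 9 in the same 4 comparisons. Of all genes, 39.4%, 33.6%, 45.9% and 57.7% were then called.

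Promoter windows of 250 bases before to 50 after the start were read from the RefSeq table for 67 of the 79 genes, as 72 windows. Windows on chromosome 18, where Atp5a1 and Ndufa2 lie, were left out of the 72 and kept among those of all tested genes. The NRF1 motif CGCATGCG was in 12.5% of these windows, against 3.71% of those of all tested genes and 1.87% of all windows. In Cox6a1 it began 161 bases before the start. The YY1 motif AAGATGGCG was in 9.72%, against 3.04% and 1.4%. The ETS motif CCGGAAG, bound by GABP, was in 23.6%, against 17.7% and 8.86%. The RUNX motif TGTGGT was in 9.72%, against 13% and 16.8%. The STAT motif TTCCNGGAA was in 1.39%, against 1.15% of all windows. The ETS and YY1 letters can share 3 bases. Both strands were searched, and none of the sequences printed above holds the RUNX or STAT letters. Only the letters were matched, and the data hold no measure of binding.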

How the data were processed

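The authors deposited raw read counts per gene symbol, 1 table with a column for each of the 15 libraries, per the file headers. Per the labels' protocols, column-purified RNA went into strand-specific mRNA libraries (BGI DNBSEQ), and reads were handled on the mm10 build with STAR, Trimmomatic and DESeq2, whose roles and versions are not stated, per the submitters' processing notes. The counting program and its annotation were not given in the sources used here. The entry that names no gene (0.0179% to 0.0305% of counts) was left out.

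Genes were filtered within groups by edgeR 4.0.16 (R 4.3.3), which left 13123, and scaled with TMM factors. One fit of 5 group means over all libraries (10 residual degrees of freedom) was tested with robust quasi-likelihood F tests, two-sided, adjusted by the Benjamini-Hochberg method over all genes tested, with a threshold of 0.05. Log2 CPM used a prior count of 2. The comparisons were 7 pairs and 2 additivity tests. Positions and transcript lengths are from GENCODE M21. The members and gene lists were chosen with earlier results of these data known. The genes described are those past the threshold with the largest differences (up to 6 per comparison and direction), the ends of each complex in the order comparison, the paralog sets and complex II; 5 further calls (Ndufs1 in both double groups, Ndufb7 and Ndufb8 in RUNX1-ETO_ONLY and Ndufa10 in CSF3R_FIRST, each against EMPTY) are described outside that limit, chosen after their values were seen. Some genes with profiles like that of the members are not reported here. On simulated counts for the order comparison (12797 genes), the test recovered 65.7% of the 1.5-fold and 95.5% of the 2-fold changes. It recovered only 7.46% of the 1.25-fold changes, and 2 of 114 calls were false. Noise there was drawn gene by gene, without deviations shared by a whole library.

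Alternatives were library sizes alone, DESeq2 1.42.0, no filter, the compared groups alone, a replicate block, limma-voom (limma 3.58.1) with sample weights, leaving out each replicate, leaving out the 4 libraries low in long transcripts, and a lowess correction for transcript length.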

Additional observations from a re-analysis of the deposited data

Results flagged for a closer look

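For 5 genes, the double groups differed from the sum of the single effects by edgeR's test of that difference. Cox6a2 lay above the sum by 2.876 on the log2 scale in RUNX1-ETO_FIRST and by 1.695 in CSF3R_FIRST. In the CSF3R_FIRST libraries it had 7 to 9 counts, and in those of the single alleles 12 to 29, so that the sum lies near the floor. Cox7a1 lay above the sum by 2.117 in RUNX1-ETO_FIRST and 3.568 in CSF3R_FIRST. Atp5pb (0.618) and Ndufv3 (0.749) lay above and Cox6b2 (-1.694) below the sum in CSF3R_FIRST. All 7 values include EMPTY replicate 3. With the 4 libraries low in long transcripts left out, Cox6a2 was at 2.67 and 1.39, Cox7a1 at 1.28 and 3.06, Atp5pb at 0.50, Ndufv3 at 0.60 and Cox6b2 at -2.49. Cox6a2 in CSF3R_FIRST and Cox7a1 in RUNX1-ETO_FIRST were then no longer past the threshold.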

How the results depend on the processing

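All 58 called differences of the chain genes kept their direction under every alternative run, and 21 stayed past the threshold under each. Of the 58, 28 missed it with the compared groups fitted alone, 15 without EMPTY replicate 3, 9 without the filter, 5 with limma-voom, 4 without the 4 libraries, 4 with library sizes alone, 2 with the length correction and 2 with DESeq2. The counts of genes called moved more, and here each comparison is named in the order of the report: the 2 orders, then RUNX1-ETO_ONLY, CSF3R_ONLY, RUNX1-ETO_FIRST and CSF3R_FIRST against EMPTY, then each double group against its first allele, then the 2 additivity tests. With all libraries 4, 10, 6, 10, 13, 3, 5, 2 and 5 genes were called. Without the 4 libraries these were 29, 23, 24, 28, 42, 9, 31, 11 and 17. With the length correction they were 15, 23, 13, 30, 34, 7, 23, 5 and 11. With limma-voom, 21 were called between the orders, 12, 18 and 36 in CSF3R_ONLY, RUNX1-ETO_FIRST and CSF3R_FIRST against EMPTY, 7 and 20 against the first allele, and 5 and 9 in the additivity tests. With the compared groups alone, 10 were called between the orders, 3, 1, 3 and 4 against EMPTY, and 5 and 28 against the first allele. With library sizes alone, 10, 17 and 25 were called in CSF3R_ONLY, RUNX1-ETO_FIRST and CSF3R_FIRST against EMPTY, and 6 in RUNX1-ETO_FIRST against RUNX1-ETO_ONLY. With DESeq2, 5 and 10 were called against the first allele. The median log2 differences of the 79 against EMPTY were -0.09, -0.23, -0.23 and -0.16 with library sizes alone. The share of all genes called also rose without the 4 libraries, in each of these comparisons (between the orders from 18.3% to 33.7%). Shares of all genes are not given beside the counts under the other settings or, below, with 1 replicate left out. Those counts therefore do not tell whether the moves were particular to the chain genes. The cause of these moves was not tested.

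Leaving out 1 replicate at a time gave 3 to 4 called genes between the orders, and 5 to 18, 1 to 11, 6 to 22 and 10 to 36 against EMPTY. It gave 1 to 4 and 3 to 6 against the first allele, and 1 to 3 and 3 to 13 in the additivity tests. The libraries that moved a count by over 1.5 times were these. For RUNX1-ETO_ONLY against EMPTY they were RUNX1-ETO_ONLY replicates 1 (6 without it) and 2 (5) and EMPTY replicate 2 (18). For CSF3R_ONLY they were each CSF3R_ONLY replicate (1) and EMPTY replicate 2 (11). For RUNX1-ETO_FIRST they were its replicate 2 (6) and EMPTY replicates 1 (16) and 2 (22), and for CSF3R_FIRST EMPTY replicate 3 (36). Against the first allele they were RUNX1-ETO_FIRST replicate 1 (1), CSF3R_FIRST replicate 2 (3) and CSF3R_ONLY replicate 3 (3). In the additivity tests they were EMPTY replicate 3 (1) for RUNX1-ETO_FIRST, and RUNX1-ETO_ONLY replicate 2 (3), CSF3R_FIRST replicate 2 (3) and EMPTY replicates 1 (9) and 2 (13) for CSF3R_FIRST.

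Between the orders, the log2 difference of 6 genes that were not called changed sign. With library sizes alone Atp5g1 was at 0.069, Atp5g2 at 0.004 and Sdhc at 0.016, and with the length correction Atp5g2 was at 0.017. Ndufa4 was at -0.015 without the filter and with limma-voom and at -0.014 with DESeq2. With 1 replicate left out at a time, Atp5g1 ranged from -0.131 to 0.049, Atp5g3 from -0.001 to 0.147, Ndufa4 from -0.098 to 0.107 and Uqcr10 from -0.035 to 0.109.

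Replicate numbers share only a number: 9 of 30 correlations of same-numbered libraries were over 0.1 (-0.243 to 0.455), and in 1 of 10 pairs of groups every library correlated best with its own number. With the numbers as a replicate block, 5 genes were called in RUNX1-ETO_FIRST against RUNX1-ETO_ONLY and 10 in CSF3R_FIRST against CSF3R_ONLY, and none of the 58 calls was lost. Depth limits the 4 genes with fewest counts, Ndufb2, Cox6a2, Cox6b2 and Cox7a1, and EMPTY replicate 3 limits the comparisons with EMPTY.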
